A study of Mus musculus with 16 samples.

Results

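The 10 genes described here encode the signalling side of the T cell receptor: the CD3 chains Cd3d, Cd3e and Cd3g, the zeta chain Cd247, the coreceptors Cd4, Cd8a and Cd8b1, the kinases Lck and Zap70, and the adaptor Lat. They were chosen by symbol, and all 10 were found among the 49585 genes of the gene-level count table, which follows the mouse GRCm38 annotation. They were measured by RNA-seq in 16 libraries of sorted T cells, 4 in each of 4 groups, from female reproductive tissue and lymph nodes of BALB/c mice that carry a Foxp3 IRES-GFP reporter, in which cells expressing the regulatory T cell (Treg) factor Foxp3 are green. CD4conv libraries hold CD4+Foxp3- cells of the non-pregnant uterus, and lymph node Treg libraries hold CD4+Foxp3+CD25+ cells of the para-aortic nodes of non-pregnant mice. Uterine Treg and pregnant uterine Treg libraries hold CD4+Foxp3+CD25- cells of the uterus, without pregnancy and on days 6 to 8 of pregnancy by the sample source, although the titles of 3 of the 4 pregnant libraries name a later last day. The CD25 gate therefore differs between lymph node Treg and both uterine Treg groups. Each non-pregnant library pooled 20 mice and each pregnant library 3 to 8 mice. The labels give no age for the mice. CD4conv and pregnant uterine Treg were sequenced in batch 1, lymph node Treg and uterine Treg in batch 2. A comparison across batches cannot be told apart from the batch.

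In an alpha-beta T cell, the receptor chains that bind peptide and MHC have almost no cytoplasmic tail, and the signal is passed on by the CD3 chains and the zeta chain, whose tails carry tyrosine motifs. Lck, brought in by CD4 or CD8, phosphorylates these motifs, Zap70 docks on them, and Zap70 then phosphorylates Lat, a membrane scaffold for the enzymes that raise calcium and activate Ras and NF-kB. Treg cells carry the same machinery and need receptor signals to keep their suppressive programme. CD4 marks T cells that read MHC class II and CD8 those that read MHC class I. The CD8 alpha chain alone is also carried by a subset of mouse dendritic cells.

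Cd3g, Cd3d and Cd3e form 1 cluster on chromosome 9 (Cd3g at chr9:44969572-44980431 on the minus strand, Cd3d at chr9:44981786-44987339 on the plus strand, Cd3e at chr9:44998740-45009627 on the minus strand). Cd3g and Cd3d start back to back with 1354 bases between them, and Cd3d ends 11400 bases before Cd3e. Cd8b1 and Cd8a lie in the same orientation on chromosome 6, 35932 bases apart (chr6:71322788-71337494 and chr6:71373427-71379173), and Cd4 lies on the same chromosome at chr6:124864692-124888221. Lck is on chromosome 4 (chr4:129548344-129573641, minus strand), Zap70 and Cd247 are on chromosome 1 (chr1:36761798-36782818 and chr1:165788681-165877277) and Lat is on chromosome 7 (chr7:126363824-126369570, minus strand). Exons of Cd247 share 3007 of 5329 bases with Pou2f1, a gene on the opposite strand, and the library kit does not mark strand. Reads of Cd247 and Pou2f1 therefore cannot be told apart over 56.43% of the exonic length of Cd247. For Cd3e the shared length with an antisense gene was 3.31%.

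The promoter windows of the 3 clustered CD3 genes and of Lck are shown because the levels of these 4 genes, and the ratio of Lck to the CD3 chains, are what several results below compare. Of the 10 genes, 8 have a promoter entry in RefSeq (GRCm38.p6), and Cd4 and Cd8b1 have none. Each window runs 5′ to 3′ on the gene's own strand, starts 250 bases before the annotated start and is 230 bases long. Capitals mark the letters GGAAGT (core of ETS factor sites), TGTGGT (RUNX) or CACCTG (E-box), searched on both strands.
Cd3g: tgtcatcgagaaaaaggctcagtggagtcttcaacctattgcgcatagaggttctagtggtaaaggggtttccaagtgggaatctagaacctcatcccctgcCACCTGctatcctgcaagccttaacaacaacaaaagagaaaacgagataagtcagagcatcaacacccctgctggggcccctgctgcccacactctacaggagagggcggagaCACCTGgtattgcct
Cd3d: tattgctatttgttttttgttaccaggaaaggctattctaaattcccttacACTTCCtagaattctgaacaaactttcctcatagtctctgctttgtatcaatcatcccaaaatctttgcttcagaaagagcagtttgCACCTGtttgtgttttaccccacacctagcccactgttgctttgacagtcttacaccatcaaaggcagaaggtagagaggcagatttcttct
Cd3e: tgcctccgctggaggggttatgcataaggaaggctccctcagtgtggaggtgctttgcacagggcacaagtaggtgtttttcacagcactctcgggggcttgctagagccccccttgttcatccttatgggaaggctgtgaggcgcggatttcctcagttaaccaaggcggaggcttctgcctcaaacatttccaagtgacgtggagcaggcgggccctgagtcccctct
Lck: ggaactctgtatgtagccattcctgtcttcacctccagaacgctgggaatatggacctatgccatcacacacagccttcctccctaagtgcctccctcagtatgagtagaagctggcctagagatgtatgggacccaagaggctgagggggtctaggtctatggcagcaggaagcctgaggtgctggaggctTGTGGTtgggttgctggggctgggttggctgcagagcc
These windows are chr9:44980452-44980681 for Cd3g, chr9:44981536-44981765 for Cd3d, chr9:45009632-45009861 for Cd3e and chr4:129573662-129573891 for the upstream start of Lck. The Cd3g window held 2 E-box matches, the Cd3d window 1 ETS and 1 E-box match, the Lck window 1 RUNX match, and the Cd3e window none of the 3 strings. A second annotated start of Lck, whose window is chr4:129558393-129558622 and is not printed, had 1 ETS and 1 E-box match. Over 32851 promoter windows of the same length, 17.6% held the ETS string, 13.2% the RUNX string, 16.0% the E-box string and 39.7% at least 1 of them. A match is a description of the letters and not a measured binding site.

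Values are given as CPM, counts scaled to the total of the library, between libraries, and as CPM per kilobase of exon between genes. Libraries held between 1718558 and 15190212 counts. Counts over 1427 olfactory and vomeronasal receptor genes, which T cells do not use, gave a background of 0.702 to 4.33 CPM per kilobase. It was highest in pregnant uterine Treg replicates 4 and 2, lymph node Treg replicate 3 and uterine Treg replicates 5 and 3. Foxp3 lay between 0.503 and 3.26 CPM in CD4conv and between 191.7 and 814.4 CPM in the 12 Treg libraries, as the labels state. Of the 10 genes, 9 passed a floor of 5 times the background, together with 4728 protein-coding genes in all, and Cd8a did not.

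**Figure D1:**
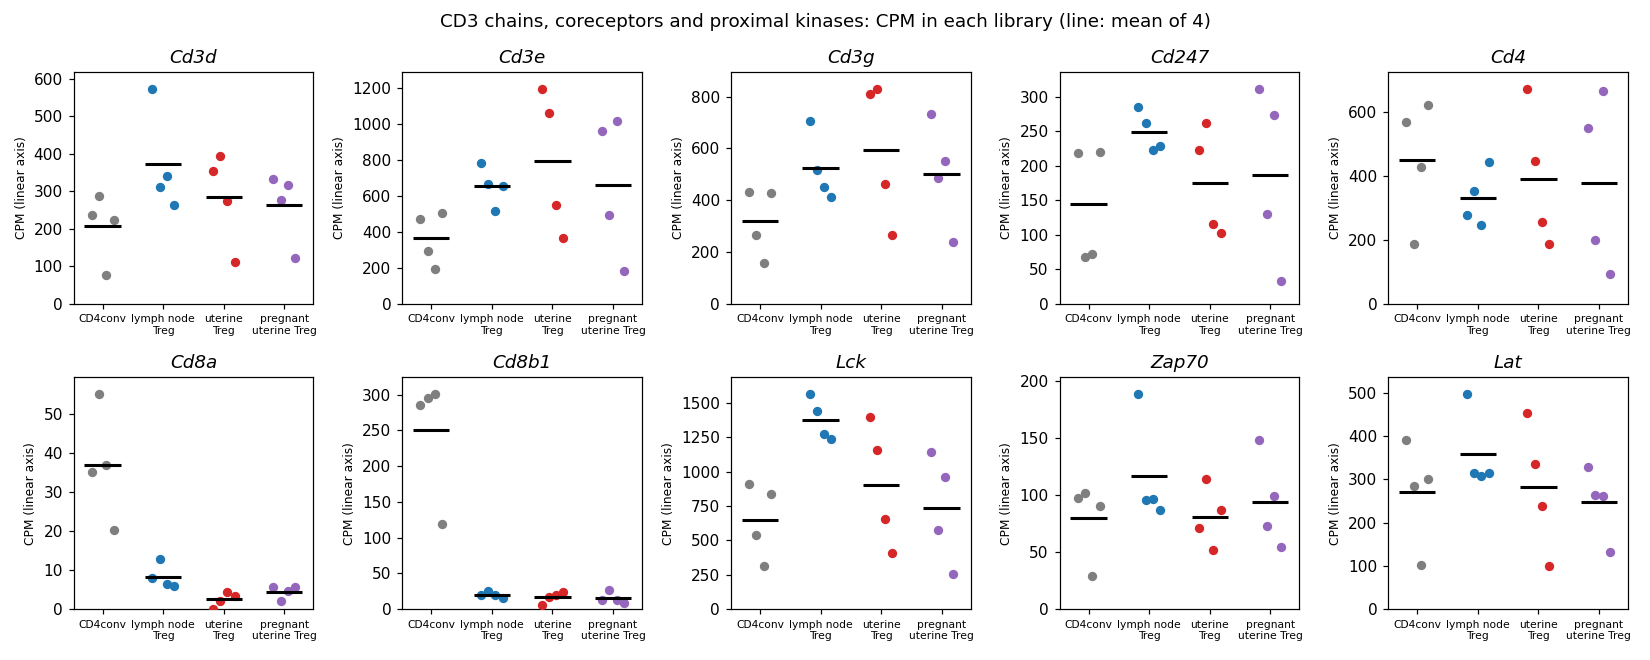
CPM (linear axis, its scale set for each gene) of the 10 genes in each of the 16 libraries, with 1 point per library and a line at the mean of 4. Cd8b1 reaches 118.8 to 300.4 CPM in CD4conv and at most 26.5 CPM in Treg libraries, while the points of the CD3 chains, Cd4, Zap70 and Lat overlap between CD4conv and both uterine Treg groups.

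The CD3 chains were read in every library. Cd3e, the chain that pairs with both Cd3d and Cd3g, stood at 472.6, 293.6, 195.0 and 501.7 CPM in CD4conv replicates 1, 2, 3 and 5. In lymph node Treg replicates 1, 2, 3 and 5 it stood at 783.0, 663.7, 513.8 and 655.0 CPM. All 4 lymph node Treg libraries lay above all 4 CD4conv libraries. In uterine Treg replicates 1, 2, 3 and 5 Cd3e was at 1192, 1061, 547.6 and 365.3 CPM, and in pregnant uterine Treg replicates 1 to 4 it was at 957.4, 492.3, 1014 and 184.1 CPM. Both uterine Treg groups thus spread from below to far above the lymph node values.

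Of the 8 other members with a mean of at least 20 CPM, Cd3g followed Cd3e most closely. Over the 16 libraries, the Pearson correlation of log2(CPM + 1) with Cd3e was 0.945 for Cd3g, 0.882 for Cd247, 0.867 for Lck, 0.799 for Cd3d, 0.741 for Lat, 0.644 for Cd4 and 0.607 for Zap70. For Cd8b1 it was -0.53. These values are descriptions over libraries that share depth, background and group. Among 8513 protein-coding genes with a mean of at least 20 CPM, the 5 most like Cd3e were Cd5 (0.974), a negative regulator of receptor signalling, the integrin chain Itgb7 (0.967), Shisa5 (0.962), the adaptor Dok2 (0.958) and Skap1 (0.955), an adaptor of integrin activation.

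Cd3g was at 319.3 ± 133.3 CPM (SD, n = 4) in CD4conv, 522.3 ± 130.1 in lymph node Treg, 592.1 ± 274.9 in uterine Treg and 502.4 ± 203.7 in pregnant uterine Treg. Cd3d was at 206.4 ± 90.9 CPM in CD4conv, 371.9 ± 137.1 in lymph node Treg, 283.2 ± 125.2 in uterine Treg and 262.3 ± 96.1 in pregnant uterine Treg. Cd247, whose counts are uncertain for the reason given above, was at 144.4 ± 85.8, 249.7 ± 29.1, 175.7 ± 78.7 and 186.9 ± 129.1 CPM in the same order. The SD was a large part of the mean in the uterine groups. The shares of the 3 clustered chains varied less: Cd3e held 41.3% ± 4.69 of the summed Cd3d, Cd3e and Cd3g counts in CD4conv, 42.7% ± 5.13 in lymph node Treg, 47.2% ± 3.45 in uterine Treg and 43.5% ± 8.86 in pregnant uterine Treg. Cd3g held 33.6% to 37.0% on average in the 4 groups and Cd3d 17.1% to 23.6%.

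Per kilobase, Lck was the highest of the 10 genes in every group by its mean and Cd8a the lowest. In lymph node Treg, Lck was at 470.6 ± 51.6 CPM per kilobase, followed by Cd3d at 204.9 ± 75.6, Cd3e at 160.3 ± 27.0, Cd3g at 159.8 ± 39.8 and Lat at 129.6 ± 33.4. Cd4 at 82.3 ± 21.8, Cd247 at 46.9 ± 5.45, Zap70 at 39.1 ± 16.0, Cd8b1 at 13.6 ± 2.81 and Cd8a at 2.27 ± 0.880 followed. The neighbours Cd3d, Cd3e, Cd3g and Lat lay within each other's spread, as did Cd247 and Zap70. The place of Cd247 in each order is uncertain, because 56.43% of the exonic length it is divided by is shared with Pou2f1. Both uterine Treg groups had Lck, the 3 CD3 chains, then Cd4 and Lat, then Cd247 and Zap70, and last Cd8b1 and Cd8a. CD4conv had another order, with Cd8b1 at 168.6 ± 59.1 CPM per kilobase second after Lck at 221.0 ± 94.0 and above Cd4 at 112.2 ± 48.5.

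Cd8b1 passed the test below in each of the 3 comparisons with CD4conv, and Cd8a in 1 of them. Cd8b1, the CD8 beta chain, was at 286.0, 295.0, 300.4 and 118.8 CPM in CD4conv replicates 1, 2, 3 and 5. In lymph node Treg replicates 1, 2, 3 and 5 it was at 20.2, 25.7, 19.2 and 15.7 CPM. In uterine Treg replicates 1, 2, 3 and 5 it was at 6.02, 17.3, 20.0 and 23.3 CPM, and in pregnant uterine Treg replicates 1 to 4 at 13.3, 26.5, 12.6 and 8.95 CPM. Each CD4conv library lay above all 12 Treg libraries, and the 3 Treg groups overlapped. The Treg values were between 1.40 and 18.3 times the expected background, and the CD4conv values between 45.7 and 263 times.

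Cd8a, the alpha chain, was far less abundant. It was at 35.2, 55.0, 36.9 and 20.3 CPM in CD4conv replicates 1, 2, 3 and 5, between 3.19 and 20.0 times the expected background. In lymph node Treg replicates 1, 2, 3 and 5 it was at 7.94, 12.9, 6.40 and 5.81 CPM. In pregnant uterine Treg replicates 1 to 4 it was at 5.56, 2.09, 4.74 and 5.60 CPM, between 0.202 and 1.90 times the background. Uterine Treg replicate 1 had 0 counts, which allows up to 1.06 CPM by counting error alone, and replicates 2, 3 and 5 were at 2.14, 4.24 and 3.46 CPM. All 4 uterine Treg libraries were below the expected background, by a factor of 0.630 or less, so Cd8a was not detectable above the background there. In CD4conv, Cd8b1 per kilobase was 13.1 to 20.0 times Cd8a per kilobase.

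Cd4 itself did not separate the groups. It was at 568.6, 186.4, 429.1 and 624.9 CPM in CD4conv replicates 1, 2, 3 and 5, at 278.8, 354.0, 248.5 and 445.4 CPM in lymph node Treg and at 673.5, 448.1, 256.4 and 188.6 CPM in uterine Treg, in the same order of replicates. In pregnant uterine Treg replicates 1 to 4 it was at 551.4, 198.9, 667.5 and 94.6 CPM. All 4 groups overlapped. The ratio of Cd8b1 to Cd4, both per kilobase, was 0.517 to 4.30 in CD4conv and at most 0.363 in any Treg library.

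**Figure D2:**
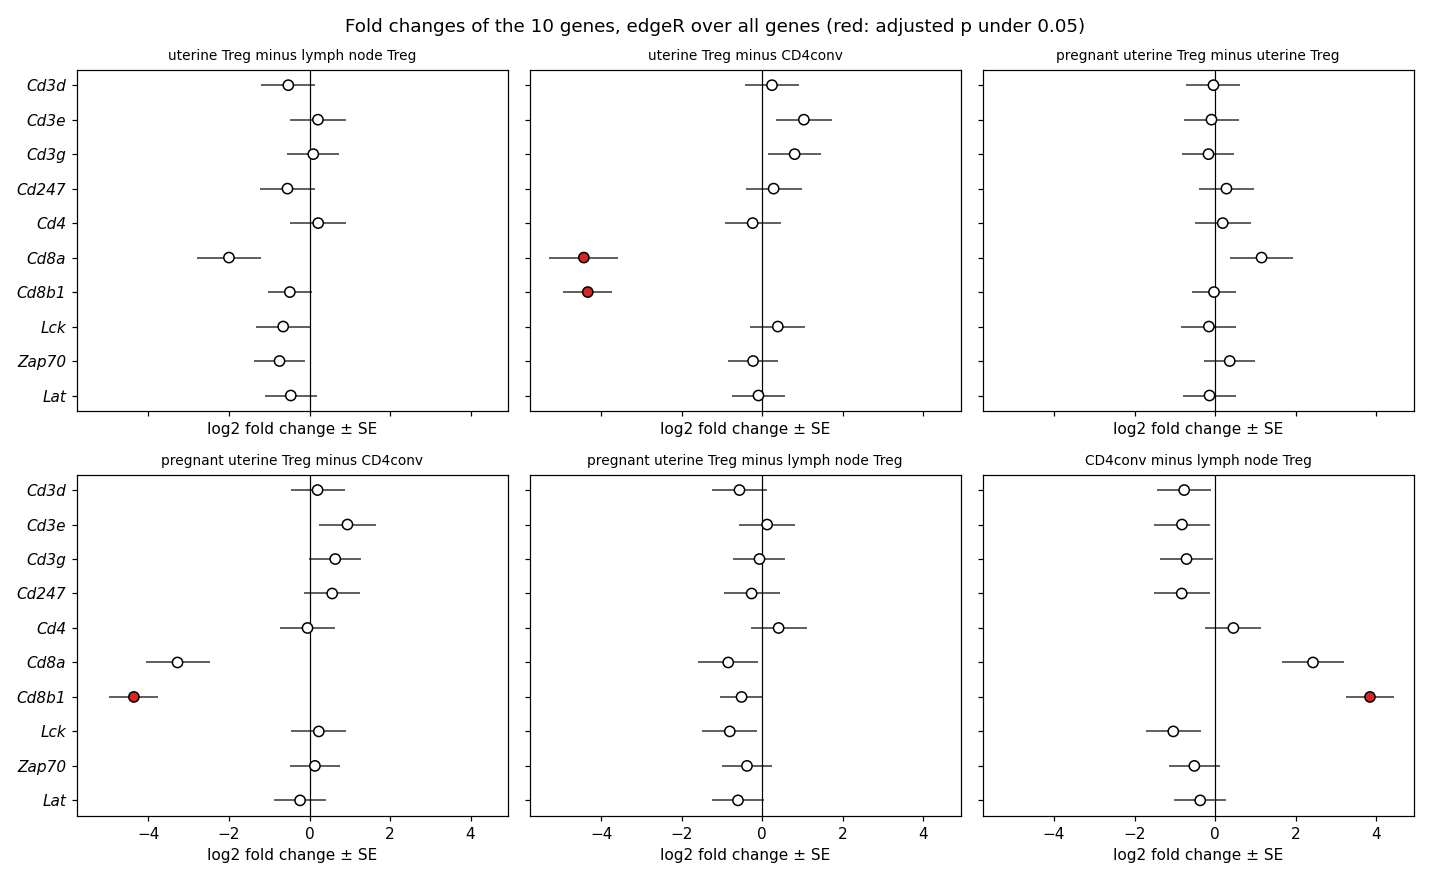
Log2 fold change with its SE (horizontal axis) for the 10 genes (vertical axis) in the 6 comparisons, from edgeR over all genes, where red points have an adjusted p under 0.05. The red points are Cd8b1 in the 3 comparisons with CD4conv and Cd8a in uterine Treg minus CD4conv.

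Differences were tested with edgeR's quasi-likelihood test on the counts of all 30096 genes that passed its expression filter, with Benjamini-Hochberg adjustment, and again among 4723 genes above the background. The tests compare pools of mice, and the p-values cover the spread between 4 pools a group. CD4conv takes part in 3 of the 6 comparisons, so these share its libraries.

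In uterine Treg against CD4conv, 2 of 10 genes fell and 0 rose, against 0.485% of all genes lower and 0.518% called in either direction. Cd8b1 was lower by a log2 fold change of -4.33 ± 0.61 (SE, edgeR adjusted p = 0.000463) and Cd8a by -4.43 ± 0.86 (adjusted p = 0.00944). Without CD4conv replicate 2 the adjusted p of Cd8a was 0.0634, and without each of the other 7 libraries in turn both calls held. Each gene was lower in all 4 uterine Treg libraries than in any CD4conv library, as were 6.9% of genes above background, a set that holds Cd8b1 but not Cd8a. The fitted fold of Cd8a sets counts near the background against CD4conv and depends on the prior count for the library at 0. This comparison crosses the batches.

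Within batch 1, pregnant uterine Treg set against CD4conv gave Cd8b1 lower by -4.36 ± 0.61 (edgeR adjusted p = 0.000421), 1 of 10 genes, against 0.399% of all genes lower and 0.432% in either direction. Cd8a had a log2 fold change of -3.28 ± 0.79 and missed the threshold (adjusted p = 0.0713). Both genes lay lower in 4 of 4 pregnant libraries than in any CD4conv library, where 9.07% of genes above background did so.

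CD4conv against lymph node Treg, which crosses batch and tissue, gave Cd8b1 higher by 3.85 ± 0.59 (edgeR adjusted p = 0.00084), 1 of 10 genes, against 0.591% of all genes higher and 0.665% in either direction. Cd8a was at 2.43 ± 0.77 (adjusted p = 0.295). Both were higher in all 4 CD4conv libraries than in any lymph node library, as were 7.17% of genes above background. The call of Cd8b1 held in 8 of 8 fits that each left out 1 library, in each of the 3 comparisons with CD4conv. DESeq2 called both Cd8b1 and Cd8a in all 3 of them.

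The libraries labelled CD4conv also carried RNA of other cells, and these levels are set beside the CD8 chains. The 14 markers of plasmacytoid dendritic cells, which make type I interferon, summed to 2994 to 6989 CPM in CD4conv and to 112 to 599 CPM in Treg libraries. Siglech, their defining lectin, was at 1225 ± 352 CPM in CD4conv and at no more than 88.1 CPM in any Treg library, with 0 counts in uterine Treg replicate 1. Irf8 was at 1039 ± 340 CPM and Ccr9 at 765 ± 329 CPM in CD4conv. CD4conv replicate 5 had the lowest Cd8b1 of its group and also the lowest plasmacytoid, macrophage and dendritic cell, NK and B cell sums. Its sum of the cytotoxic T cell markers given below, 411 CPM, was not the lowest, which was 322 CPM in replicate 3. Its stromal sum, 325 CPM, was the highest of the group. The 15 macrophage and dendritic cell markers summed to 1449 to 19571 CPM in CD4conv and 121 to 1301 CPM in Treg, with Cd74, the MHC class II invariant chain, at 5247 ± 3787 CPM, Apoe at 2170 ± 2299 CPM and Lyz2 at 1269 ± 1509 CPM in CD4conv.

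Both the NK and the cytotoxic sums were also higher in each CD4conv library than in any Treg library. The 10 NK cell markers summed to 457 to 1821 CPM in CD4conv and 33.7 to 213 CPM in Treg, with Tyrobp at 774 ± 418 CPM and Fcer1g at 226 ± 188 CPM in CD4conv. These 2 genes made up most of the sum. They were also the only 2 of 9 tested NK markers that edgeR called over all genes in CD4conv minus lymph node Treg, against 0.591% of all genes higher. Log2 fold changes of the 9 ran from -1.02 to 10.3, so not all NK markers went this way. Gzmb was highest in pregnant uterine Treg, at 114 ± 36.3 CPM. The 6 markers of cytotoxic T cells other than the CD8 chains summed to 322 to 778 CPM in CD4conv and 65.2 to 182 CPM in Treg, with Ccl5 at 220 ± 160, Nkg7 at 156 ± 66.2 and Klrk1 at 73.8 ± 17.8 CPM in CD4conv. The 6 did not all go this way: over all genes, log2 fold changes of CD4conv minus lymph node Treg ran from -1.09 to 4.71. There edgeR called 1 of the 6, Ccl5, against 0.591% of all genes higher. Both B cell and stromal sums overlapped between CD4conv and Treg. Ighm was at 732 ± 270 CPM in CD4conv and Ms4a1 at 24.4 ± 16.0 CPM. Pecam1, Col3a1 and Dcn were at 112 ± 25.2, 22.2 ± 13.5 and 16.4 ± 11.4 CPM there. The part of these cells in the levels of Cd8b1 and Cd8a was not tested.

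The 5 genes most like Cd8b1 over the 16 libraries were Scimp (0.964), an adaptor of antigen-presenting cells, the transcription factor Irf8 (0.963), the lysosomal protein Cd68 (0.960), Klk1b27 (0.959) and Cox6a2 (0.957). Cox6a2 had means of 142.6 CPM in CD4conv and at most 0.17 CPM in a Treg group. Of the 8 other members with a mean of at least 20 CPM, Cd4 was nearest, at 0.081. Irf8 and Cox6a2 also belong to the plasmacytoid list. Scimp, Cd68, Klk1b27 and Cox6a2 had means of 76.3 to 201.9 CPM in CD4conv and at most 4.86 CPM in a Treg group. They thus reached the mean of 20 CPM only through CD4conv, the group in which Cd8b1 is high. Like those for Cd3e, these correlations are descriptions over libraries that share depth, background and group, and add nothing to the group difference.

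**Figure D3:**
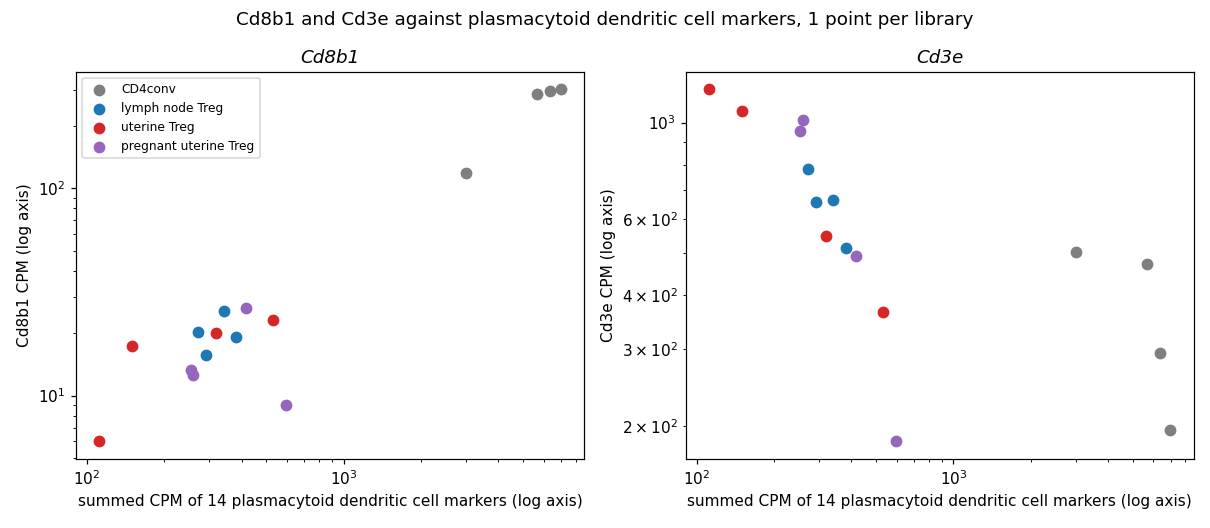
Cd8b1 CPM (left) and Cd3e CPM (right) against the summed CPM of 14 plasmacytoid dendritic cell markers in each of 16 libraries, all on log axes, coloured by group. The 4 CD4conv libraries sit at the upper right for Cd8b1, with replicate 5 lowest at 118.8 CPM, and lie among the lower Treg libraries for Cd3e.

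For the CD3 chains the comparisons with CD4conv were less firm. Among the genes above background, Cd3e was higher in uterine Treg than in CD4conv by a log2 fold change of 1.17 ± 0.33 (edgeR adjusted p = 0.0412), 1 of 9 genes, where 3.11% of the genes tested rose, 2.99% fell and 6.1% were called in all. Over all genes the value was 1.03 ± 0.70 (adjusted p = 0.999). The call among genes above background held only without CD4conv replicate 5 or uterine Treg replicate 5, with adjusted p between 0.0191 and 0.147 over the 8 fits, so that leaving out any of the other 6 libraries ended it. Cd3g had 0.80 ± 0.65 and missed the threshold in both fits. Cd8b1 was the other gene called in this fit, at -3.76 ± 0.50 (adjusted p = 0.000121).

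In pregnant uterine Treg against CD4conv, Cd3e had a log2 fold change of 0.94 ± 0.70 over all genes and Cd3g of 0.64 ± 0.65, and neither passed. In the fit above background, where 8.38% were called, the adjusted p of Cd3e was 0.0901. Of the receptor constant genes, edgeR and DESeq2 called 0 of 4 over all genes in each of the 6 comparisons. The edgeR unadjusted p was under 0.05 for 0 of 4, against 2.73% to 5.33% of all genes. The set above background holds protein-coding genes only, so these 4 were not tested in the fit that called Cd3e. Trac was at 293 ± 117 CPM in CD4conv, 373 ± 123 in lymph node Treg, 418 ± 189 in uterine Treg and 355 ± 195 in pregnant uterine Treg. Trbc1 was at 337 ± 133 CPM in CD4conv and 564 ± 175 in lymph node Treg, and Trbc2 at 548 ± 226 and 981 ± 304 CPM. Trdc, the delta chain constant gene of the other T cell lineage, was at 3.70 ± 1.50 CPM in CD4conv and at most 12.9 CPM in any library. In bulk libraries, fewer T cells and less RNA per T cell cannot be told apart.

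Within both uterine groups, the libraries with the lower Cd3e were those with the higher background. Uterine Treg replicates 3 and 5, with a background of 2.74 and 2.82 CPM per kilobase, had the lower Cd3e of their group, against replicates 1 and 2 with 1.36 and 0.933. Pregnant replicates 2 and 4, with 2.85 and 4.33, had the lower Cd3e against replicates 1 and 3 with 0.802 and 0.702. Uterine Treg replicate 5, the lowest in Cd3e, also had the highest stromal sum of its group (1466 CPM against 202 to 341 CPM) and the highest macrophage and dendritic cell sum (1301 CPM against 276 to 399 CPM). The part of the background and of these cells in the spread was not tested.

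Between lymph node Treg and CD4conv, the CD3 chains and Lck had the same sign. Log2 fold changes of CD4conv minus lymph node Treg were -0.82 ± 0.70 for Cd3e, -0.71 ± 0.65 for Cd3g, -0.77 ± 0.67 for Cd3d, -0.83 ± 0.70 for Cd247 and -1.04 ± 0.69 for Lck, and none of these 5 passed over all genes. Cd3e, Cd247 and Lck did not overlap between the groups and were lower in CD4conv, as were 8.12% of genes above background. Among genes above background, Lck was lower by -1.06 ± 0.32 (edgeR adjusted p = 0.0473), 1 of 9, where 4.76% rose, 2.88% fell and 7.64% were called in all; Cd8b1 was the other call of this fit. That call held only without CD4conv replicate 1 or 5, with adjusted p between 0.0415 and 0.154 over 8 fits, so that leaving out any of the other 6 libraries ended it.

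Lck, the kinase that starts the cascade, was at 906, 537, 311 and 835 CPM in CD4conv replicates 1, 2, 3 and 5. In lymph node Treg replicates 1, 2, 3 and 5 it was at 1562, 1440, 1276 and 1235 CPM. Uterine Treg replicates 1, 2, 3 and 5 had 1395, 1160, 654 and 410 CPM, and pregnant uterine Treg replicates 1 to 4 had 1141, 574, 962 and 257 CPM. All 4 pregnant libraries lay below all 4 lymph node libraries, where 8.42% of genes above background were lower without overlap, and uterine Treg overlapped with lymph node Treg.

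Set against the summed CD3 counts of the same library, Lck was lower in both uterine Treg groups than in lymph node Treg or CD4conv. The ratio of Lck counts to summed Cd3d, Cd3e and Cd3g counts was 0.720 ± 0.0655 (SD, n = 4) in CD4conv, with a range of 0.635 to 0.795, and 0.907 ± 0.102 in lymph node Treg, with a range of 0.757 to 0.976. It was 0.540 ± 0.0397 in uterine Treg, from 0.508 to 0.592, and 0.501 ± 0.0480 in pregnant uterine Treg, from 0.459 to 0.564. All 8 uterine Treg libraries of both groups lay below the 8 others. Of 4719 other genes above background, 61 or 1.29% had a ratio to the same sum that did so. The ratio is free of sequencing depth, and is a description with no test, chosen after seeing the values. Within batch 1 pregnant uterine Treg lay below CD4conv, and within batch 2 uterine Treg lay below lymph node Treg. The CD4conv libraries also carried the RNA of other cells described above, and the part of these cells in the ratio was not tested.

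It did not hold against each CD3 chain alone. Lck counts per Cd3d count were 1.87 to 4.07 in CD4conv, 2.73 to 4.68 in lymph node Treg, 2.39 to 3.94 in uterine Treg and 2.08 to 3.43 in pregnant uterine Treg, and the groups overlapped. Against Cd3g the ratio was 1.96 to 2.11 in CD4conv, 2.21 to 2.98 in lymph node Treg, 1.40 to 1.72 in uterine Treg and 1.07 to 1.74 in pregnant uterine Treg, with the uterine groups below the others. The same separation was found against Cd3e, with ratios of 1.59 to 1.92 in CD4conv, 1.89 to 2.48 in lymph node Treg, 1.09 to 1.19 in uterine Treg and 0.949 to 1.39 in pregnant uterine Treg. The groups also overlapped when Lck was set against the receptor chains. The ratio of Lck to summed Trac, Trbc1 and Trbc2 counts was 0.557 ± 0.0951 in CD4conv, 0.747 ± 0.132 in lymph node Treg, 0.486 ± 0.0717 in uterine Treg and 0.510 ± 0.0643 in pregnant uterine Treg. The sum of the 3 CD3 chains per summed Trac, Trbc1 and Trbc2 counts was 0.770 ± 0.0842 in CD4conv, 0.819 ± 0.0618 in lymph node Treg, 0.896 ± 0.0793 in uterine Treg and 1.02 ± 0.124 in pregnant uterine Treg. Lymph node Treg differ from both uterine Treg groups in the CD25 gate as well as in tissue, and these cannot be told apart.

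**Figure D4:**
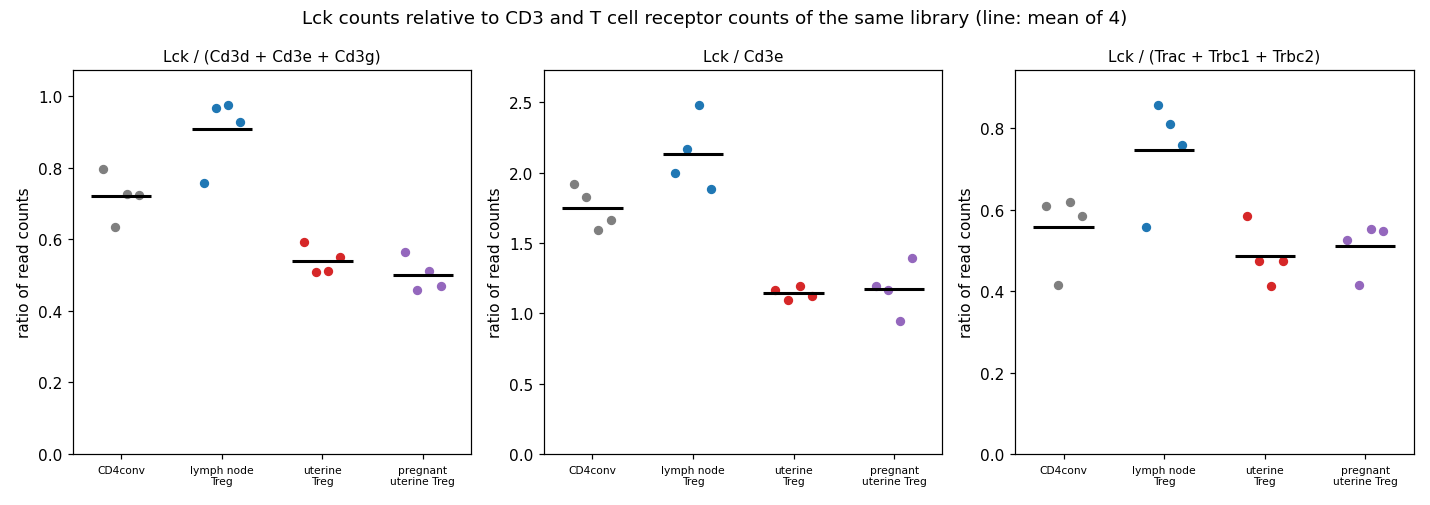
Ratio of Lck counts to summed CD3 counts (left), to Cd3e counts (middle) and to summed T cell receptor constant counts (right) on linear axes from 0, with 1 point per library and a line at the mean of 4. Both uterine Treg groups lie below CD4conv and lymph node Treg in the left and middle panels, at 0.459 to 0.592 against 0.635 to 0.976 in the left one, and overlap with them in the right panel.

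Zap70, the kinase that docks on the phosphorylated CD3 tails, was at 79.9 ± 34.1 CPM in CD4conv, 117.0 ± 47.8 in lymph node Treg, 81.1 ± 26.3 in uterine Treg and 93.7 ± 40.5 in pregnant uterine Treg. All groups overlapped. Lat was at 269.9 ± 121.4, 358.6 ± 92.4, 281.6 ± 149.7 and 246.7 ± 82.4 CPM in the same order, also with overlap. Against the summed CD3 counts, Lat was at 0.211 to 0.241 in lymph node Treg and 0.134 to 0.192 in uterine Treg, which did not overlap, as 4.43% of other genes above background were lower in this way. In pregnant uterine Treg the ratio was 0.139 to 0.241 and overlapped with both. In CD4conv it was 0.237 to 0.343. The ratio of Cd247, whose counts are uncertain for the reason given above, did not overlap between lymph node and uterine Treg either. It was 0.1383 to 0.1756 in lymph node Treg, 0.0904 to 0.1377 in uterine Treg, 0.0598 to 0.154 in pregnant uterine Treg and 0.0805 to 0.1913 in CD4conv. The ratios of Lck, Lat and Cd247 share this sum as denominator.

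Between uterine and lymph node Treg, both of batch 2, edgeR called 0 of 10 genes, as it called 0.0% of all genes. The unadjusted p was under 0.05 for 1 member, Cd8a, and for 905 of all genes, and DESeq2 called 0 members. Log2 fold changes were -2.0 ± 0.80 for Cd8a, -0.74 ± 0.63 for Zap70 and -0.65 ± 0.68 for Lck, and between -0.55 and 0.22 for the other 7. Among genes above background, where 1.29% were called, 0 of 9 passed. Cd8a was lower in uterine Treg with no overlap, at levels below the background there, where 5.56% of genes above background were lower in this way. Pregnant uterine against lymph node Treg also gave 0 of 10 by edgeR, as for 0.0% of all genes, with 0 members at an unadjusted p under 0.05 and 0 by DESeq2. The log2 fold change was -0.81 ± 0.69 for Lck, -0.85 ± 0.75 for Cd8a and -0.60 ± 0.65 for Lat, and 0 of 9 passed above background, where 2.35% did.

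Pregnancy, compared across batches in uterine Treg, changed no member past the threshold. By edgeR 0 of 10 genes passed, as for 0.0% of all genes, with 0 members at an unadjusted p under 0.05 and 0 by DESeq2, and 0 of 9 passed above background, where 0.0% did. Cd8a had a log2 fold change of 1.15 ± 0.78 at levels near the background in both groups. The other 9 genes lay between -0.16 and 0.36, and each changed sign in 1 to 5 of 15 alternative fits. Their 95% intervals reached from -1.49 to 1.64 in this fit and from -0.94 to 0.95 in the fit above background. A change of a gene within its own interval is compatible with the fit concerned. The scaling between libraries (TMM) sets the zero of this comparison. The median log2 fold change was 0.11 over all genes and 0.0035 among genes above background.

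Of 48 other genes of the pathway, 28 that pass the signal on and 20 that restrain it, edgeR called 0 over all genes in each of the 6 comparisons. The counts at an unadjusted p under 0.05 were 8 in uterine Treg minus CD4conv, 5 in pregnant uterine Treg minus CD4conv, 2 in CD4conv minus lymph node Treg, 2 in uterine minus lymph node Treg and 0 in the others. Over all genes the shares at an unadjusted p under 0.05 were 5.33%, 4.79%, 3.98% and 3.01% in these 4 comparisons, 2.73% between the uterine Treg groups and 3.1% in pregnant uterine minus lymph node Treg. DESeq2 called 3 in the first, 2 in the second and 0 in the other 4, with Ptpn6 in both of the first. It called 1.1% of all genes in each of the first 2, 1.45% in CD4conv minus lymph node Treg, 0.0997% in uterine minus lymph node Treg, 0.0399% between the uterine Treg groups and 0.15% in pregnant uterine minus lymph node Treg. Above background, 38 of the 48 could be tested. There 3 rose and 3 fell in uterine Treg against CD4conv, where 3.11% of the genes tested rose and 2.99% fell, with a median of 0.35 over the 38 beside 0.02 over all genes tested. In pregnant uterine Treg against CD4conv 2 rose and 2 fell, where 4.11% and 4.28% did, with a median of 0.40 beside 0.03.

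Ptpn6, the phosphatase SHP-1 that opposes Lck and Zap70 and is abundant in myeloid and B cells as well, was at 355.7 ± 138.7 CPM in CD4conv, 221.7 ± 40.3 in lymph node Treg, 79.9 ± 22.0 in uterine Treg and 81.8 ± 54.8 in pregnant uterine Treg. Among genes above background it fell in uterine Treg against CD4conv (log2 fold change -2.07 ± 0.33, edgeR adjusted p = 0.000628) and in pregnant uterine Treg against CD4conv (-2.08 ± 0.33, adjusted p = 0.000581). It was also lower than in lymph node Treg, by -1.34 ± 0.33 in uterine Treg (adjusted p = 0.0492) and by -1.34 ± 0.32 in pregnant uterine Treg (adjusted p = 0.0337). Both calls against CD4conv held in 8 of 8 fits that each left out 1 library. The call in uterine against lymph node Treg was lost in all 8 such fits (adjusted p from 0.0677 to 0.177), and that in pregnant uterine against lymph node Treg held only without lymph node replicate 5 or pregnant replicate 3.

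Sh2d1a, the adaptor SAP of SLAM family receptors, rose against CD4conv by 1.52 ± 0.36 in uterine Treg (edgeR adjusted p = 0.0134, genes above background) and by 2.02 ± 0.36 in pregnant uterine Treg (adjusted p = 0.0016). Cd2, an adhesion and costimulatory receptor, rose by 1.14 ± 0.32 in uterine Treg against CD4conv (adjusted p = 0.0416) and was lower in CD4conv than in lymph node Treg by -1.42 ± 0.33 (adjusted p = 0.00975). Vav1, an exchange factor downstream of Lat, was lower in uterine than in lymph node Treg by -1.04 ± 0.25 (adjusted p = 0.0492). Leaving out 1 library at a time kept Sh2d1a in pregnant uterine Treg and Cd2 against lymph node Treg in 8 of 8 fits each. Sh2d1a in uterine Treg was lost without CD4conv replicate 3 or uterine Treg replicate 3, Vav1 was lost in all 8 fits, and Cd2 in uterine Treg held only without CD4conv replicate 5 or uterine Treg replicate 5. Further calls by the naming rule were Sla, an adaptor that promotes receptor breakdown, at 0.96 ± 0.27 in pregnant uterine Treg against CD4conv (adjusted p = 0.0358), and Sh2d2a, an adaptor that binds Lck, at -1.23 ± 0.34 in CD4conv against lymph node Treg (adjusted p = 0.0305). Each held in 2 of 8 fits, Sla without pregnant replicate 2 or 4 and Sh2d2a without CD4conv replicate 1 or 5. The markers of other cells in CD4conv stand beside each of these differences with CD4conv, and their part was not tested.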

How the data were processed

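RNA was amplified with SMART-Seq v4 and made into Nextera XT libraries, per the labels' protocols. The deposited values are raw read counts per gene, made by the authors with Trimmomatic, HISAT2, SAMtools and featureCounts on GRCm38, per the submitters' processing notes (versions: not given in the sources used here). Per-library files and the joint table held identical counts in 16 of 16 libraries. CPM divides by the library total, and exonic length per gene came from the GENCODE annotation of GRCm38. Tests used edgeR 4.0.16 (TMM, filterByExpr, robust quasi-likelihood fit over 16 libraries, group only, adjusted p under 0.05) in R 4.3.3. SEs of fold changes are the fold change over the root of F of the quasi-likelihood fit. The edgeR steps were also run on simulated counts for CD4conv minus lymph node Treg only, with a dispersion shared by all genes. The simulation held no batch, no other cells and no difference in background between libraries. Its outcome is not given here, and it does not measure the error in these libraries. Alternatives were genes above 5 times the background, RLE scaling, DESeq2 1.42.0, no filter, only the 2 groups, the replicate number as a block, leaving out each library, and leaving out the 5 libraries with a background over 2.5 CPM per kilobase. Pathway genes were named by largest change among those past the threshold (up to 6 a comparison, and up to 4 above background), markers by highest CPM (3 a list), and genes like Cd3e and Cd8b1 by correlation (5 each); some genes that these rules select are not reported here. The 10 genes, the lists and the rules were chosen with earlier results of these data known. Of the receptor constant genes, Trgc1, Trgc2 and Trgc4 were not matched. Floors (3 counts) cover counting error only. Intervals of fold changes were built from these SEs of the quasi-likelihood fit, and so include the spread between pools of a group. They use the normal quantile and not the F distribution of the test, which makes them somewhat too narrow.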

Additional observations from a re-analysis of the deposited data

Results flagged for a closer look

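In groups of 4 libraries, a value was taken up when its gap to the nearest library over the group's range exceeded Dixon's 95% critical value. Of 40 groups examined (10 genes in 4 groups), 4 values did so, where chance gives about 1 in 20 groups. Cd8b1 in CD4conv replicate 5 stood at 118.8 CPM, below the 286.0 to 300.4 CPM of the other 3 libraries. This library also had the lowest sums of plasmacytoid, macrophage and dendritic cell, NK and B cell markers of its group, but not of cytotoxic T cell or stromal markers. Zap70 in CD4conv replicate 3 was at 29.3 CPM against 90.8 to 101.8 CPM. That library was also the lowest of its group in Cd3d, Cd3e, Cd3g, Lck and Lat, though not in Cd4 or Cd247. Its receptor constant genes summed to 506 CPM against 1292 to 1492 CPM. It had the highest plasmacytoid sum of its group, 6989 CPM, and the highest macrophage and dendritic cell sum, 19571 CPM. The part of other cells in its Zap70 value was not tested. In lymph node Treg replicate 1, Zap70 was at 188.5 CPM against 87.2 to 96.6 CPM and Lat at 497.1 CPM against 309.0 to 314.2 CPM.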

How the results depend on the processing

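Over all genes, the count of members past the threshold in uterine Treg minus CD4conv was 2, 1 to 2 when 1 library was left out, and 3, with Cd3e, without the 5 libraries of highest background. In pregnant uterine Treg minus CD4conv it was 1, and 2 with DESeq2, with no filter and without the 5 libraries of highest background (Cd8a or Cd3e joined Cd8b1). In CD4conv minus lymph node Treg it was 1, and 2 among genes above background, with DESeq2 and with only the 2 groups compared. In the fit above background, leaving out 1 library gave 1 to 3 members in uterine Treg minus CD4conv, 1 to 2 in pregnant uterine Treg minus CD4conv and 1 to 2 in CD4conv minus lymph node Treg. Without the 5 libraries of highest background these became 2 in pregnant uterine Treg minus CD4conv and 1 in CD4conv minus lymph node Treg. That choice, made after seeing the data, leaves 2 libraries in each uterine group and takes out those with the lower Cd3e, so that a higher Cd3e follows from it. The cause was not tested for the other settings. Cd8b1 was past the threshold in 15 of 15 alternatives in each comparison with CD4conv. The next counts cover named pathway genes, and members that were called or had a log2 fold change of at least 0.6 in size. None of these reversed over the alternatives run: 396 values kept their side of the threshold, 8 passed it in addition and 76 lost it. Of the 76, 75 were pathway genes called only among genes above background. Smaller fold changes of members did change sign, in up to 8 of 15 alternatives for Lat in uterine Treg minus CD4conv.

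Replicate numbers were not used to pair the libraries in the main fits. In no comparison did every same-numbered pair have correlated deviations above 0.1 (from -0.40 to 0.36 in all). These correlations cannot exclude pairing, because pregnant uterine Treg and CD4conv, which come from different mice, gave 0.099 to 0.107. With the replicate block, which cannot use pregnant replicate 4, the counts over all genes were 2, 1 and 1 in the 3 comparisons with CD4conv and 0 in the others. Among genes above background the block gave 2 members, with Cd3e, in pregnant uterine Treg minus CD4conv. Cd8a had 0 to 12 counts in each uterine Treg library, all below the expected background.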
